A study of Mus musculus with 8 samples.

Results

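Plasma cell and secretory pathway genes were followed in mouse splenic follicular B cells, the resting B cells of the spleen's follicles, with and without GFP-ZFP36L1. The 40 genes were taken by symbol as regulators and products of the plasma cell, as folding and degradation machinery of the endoplasmic reticulum (ER), or as parts of the unfolded protein response. All 40 were among the 43629 genes of the count table, and 39 were expressed highly enough to be tested among 13035 genes. The choice did not use the measured values of either group, but it was made with earlier results of these data known.

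When a B cell becomes a plasma cell, Prdm1 (Blimp-1) shuts down the B cell program and Xbp1 widens the ER so that antibody can be folded and exported in bulk. The unfolded protein response is the ER's own stress circuit. Its sensor Ern1 (IRE1) splices Xbp1 mRNA, its sensor Atf6 is cut to release a transcription factor, and a kinase sensor raises translation of Atf4, which drives Ddit3 (CHOP). Resting follicular B cells secrete little antibody and are known for low Prdm1 and Jchain with a working set of ER chaperones. ZFP36L1 is an RNA-binding protein that recognises AU-rich sites in 3' UTRs and promotes decay of the mRNA.

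There were 8 libraries, 4 in each group. Controls carried the Rosa26GFPZFP36L1 allele without Cre, and the GFP-ZFP36L1 group carried Rosa26GFPZFP36L1 together with CD23cre/+, so both groups share the allele. CD23cre expresses the recombinase in mature B cells, and an effect of Cre itself cannot be told apart from one of the GFP-ZFP36L1 protein. B cells enriched from spleen were sorted on B220, CD93, CD21 and CD23, all positive in the labels, and no treatment or age is given there. The labels do not name the animals behind the libraries, so a p-value covers only the spread among these libraries, which may be technical.

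Libraries held between 38947758 and 51024233 counts. Levels are given as CPM (counts per 1000000) on library sizes scaled by TMM, a method that removes differences in library composition, as mean ± SD of 4 libraries. The 8 B cell markers, 0 of them called, summed to between 14800 and 15900 CPM in controls and between 13300 and 15000 CPM in the GFP-ZFP36L1 libraries. Marginal zone markers, a list that shares Cr2 with the B cell markers, summed to 1390 to 1550 and 1410 to 1730 CPM, with 0 of 5 called. Germinal centre markers summed to 112 to 164 and 89.8 to 164 CPM, with 0 of 4 tested called. B1 cell markers summed to 21.8 to 25.3 and 18 to 22.4 CPM, with 1 of 5 called higher, beside 1.83% of all genes tested. Erythroid markers, 0 of 4 tested called, reached 13.4 CPM in control replicate 4 and were between 2.45 and 8.43 CPM in the others. T cell markers summed to 31.8 to 34.8 and 33.8 to 34.9 CPM, nearly all from 1 marker, since 7 of 8 were under 1 CPM. The 1 tested was not called. Neutrophil markers summed to at most 0.329 CPM. Zfp36l1 had 547 ± 35.1 CPM in controls and 439 ± 28.6 CPM in the GFP-ZFP36L1 group (log2 fold change -0.32, edgeR quasi-likelihood test, p adjusted by Benjamini-Hochberg 0.0348). Its count was thus lower in the labelled libraries. No source used here says whether transgene reads were counted on this gene, and directions below follow the labels.

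Of the 39 tested genes, 1 was higher and 1 was lower in the GFP-ZFP36L1 group, and 37 passed the test in neither direction (the same edgeR test, adjusted over all genes tested, threshold 0.05). The gene that rose was Dnajb9, a co-chaperone of the ER, and the one that fell was Fkbp11, a prolyl isomerase of the ER that is abundant in plasma cells. Each is 2.56% of the 39, beside 1.83% of all tested genes called higher and 1.30% called lower. The median log2 fold change of the 39 was -0.04, with 66.7% of values negative, beside -0.01 and 52.1% for all genes tested. For 35 of 39 genes (89.7%) the 95% interval of the difference lay within 1.5-fold in either direction, which held for 77.3% of all genes tested. The others were Prdm1, Jchain, Fkbp11 and Derl3, all at low levels.

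Since this is bulk RNA, fewer cells of a type and less RNA per cell cannot be told apart. At an unadjusted p under 0.05 there were 4 higher genes (10.3%, beside 9.47% of all genes tested) and 6 lower ones (15.4%, beside 7.87%). The groups did not overlap for 3 genes that were higher (7.69%, beside 6.24% of all genes) and 2 that were lower (5.13%, beside 4.98%). These were Prdm1, Dnajb9 and Ern1 on the one side and Fkbp11 and Ssr4 on the other.

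**Figure D1:**
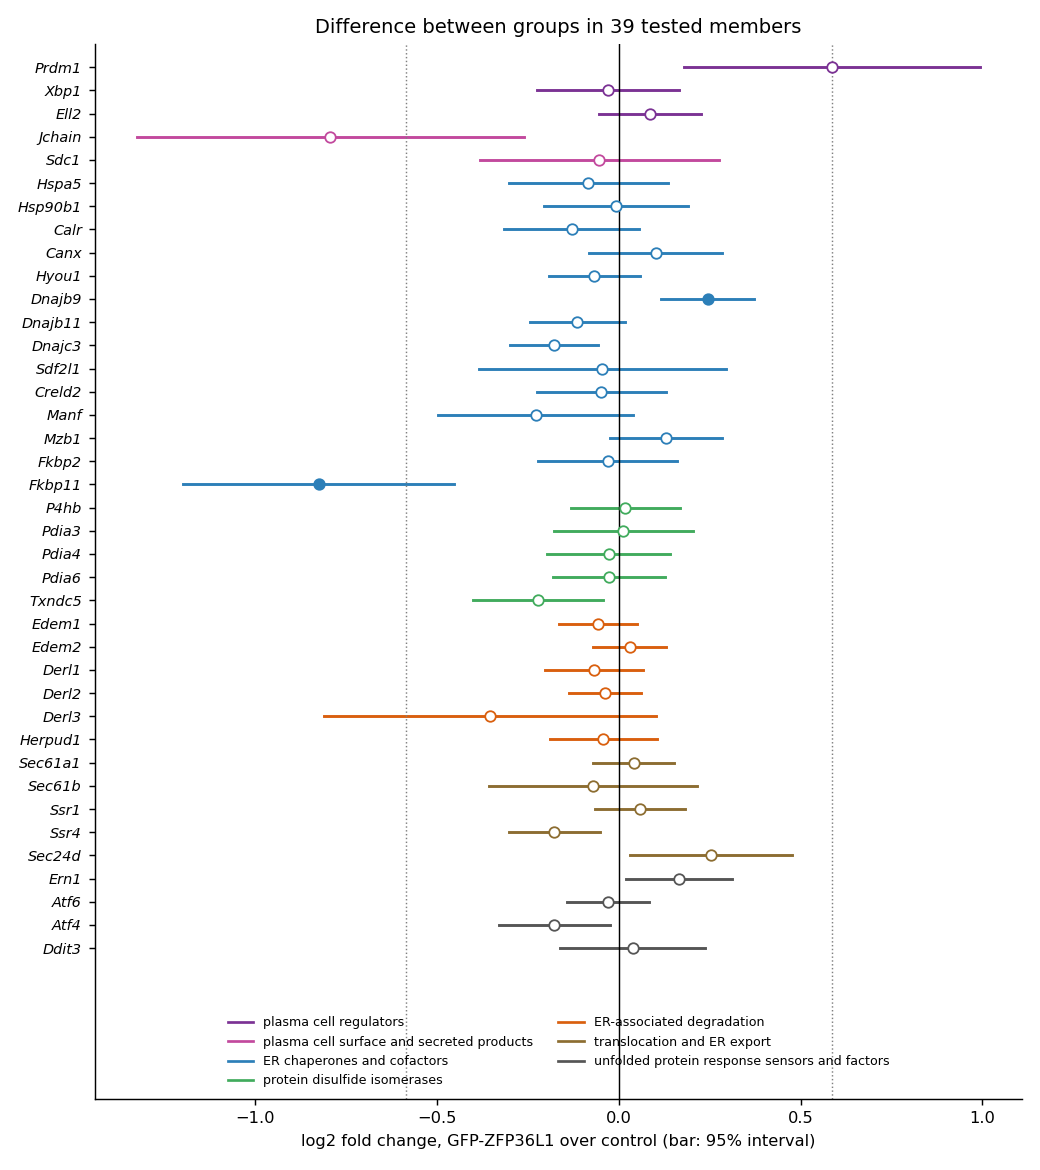
Log2 fold change of GFP-ZFP36L1 over control for the 39 tested genes, coloured by role, with 95% intervals as bars and dotted lines at 1.5-fold. Filled points mark Dnajb9 (0.24) and Fkbp11 (-0.83), the 2 genes called, and most other intervals cross 0.

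Levels per exon length spanned a wide range, with Calr first and Jchain, Prdm1 and Slpi last. In controls Calr (calreticulin, a lectin chaperone) stood first at 187 ± 14.6 CPM per kb of exon, followed by Mzb1, an ER protein that helps assemble IgM in B cells, at 137 ± 8.74. Hspa5 (BiP, the main Hsp70 chaperone of the ER) had 122 ± 13.1 and Hsp90b1 (Grp94, its Hsp90) 117 ± 13.3 CPM per kb. The ranges of Hspa5 and Hsp90b1 overlapped, as did those of Mzb1 and Hspa5, while the lowest control value of Calr (174) was above the highest of Mzb1 (145). At the other end Fkbp11 had 1.39 ± 0.108, Jchain 0.635 ± 0.213 and Prdm1 0.268 ± 0.0475 CPM per kb. Slpi, a secreted protease inhibitor, was last at 0.0849 ± 0.0688 CPM per kb.

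**Figure D2:**
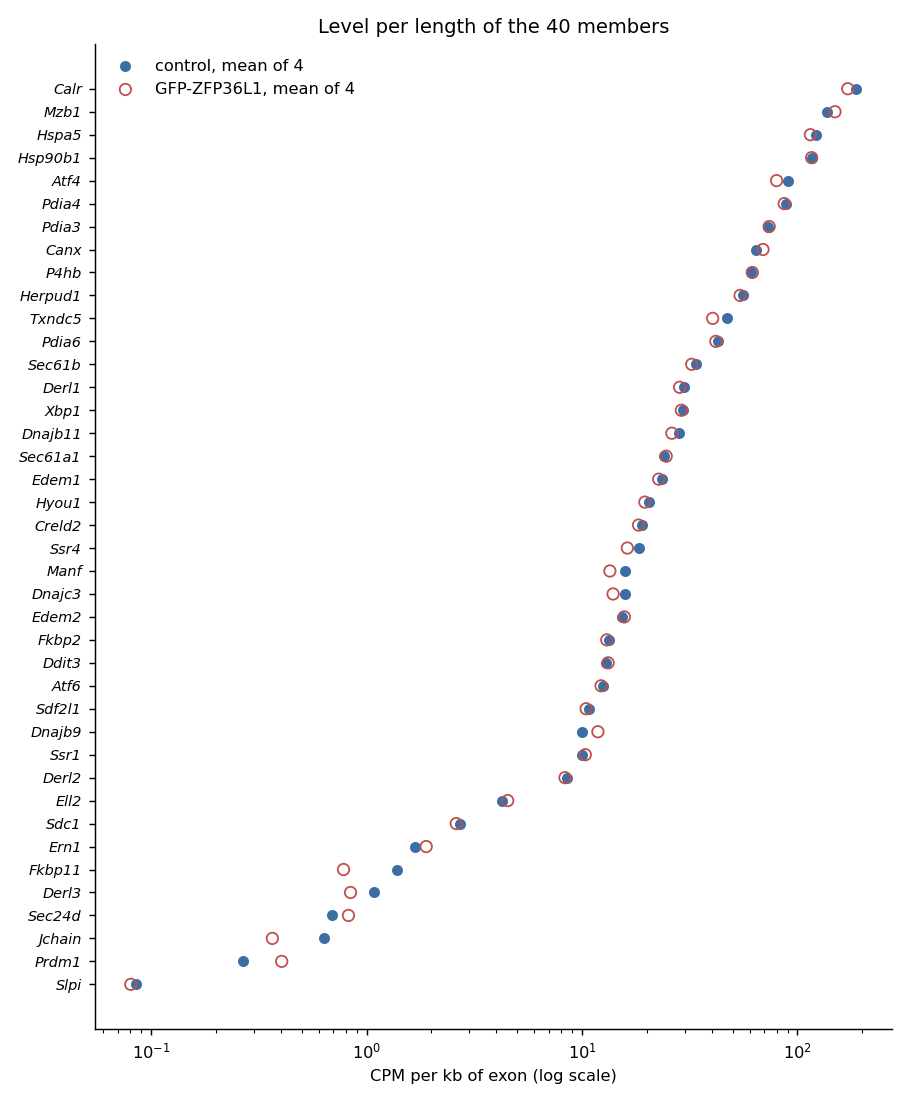
Mean level of the 40 genes in CPM per kb of exon on a log axis, ordered by the control mean, with filled points for controls and open circles for GFP-ZFP36L1. Both groups span the same range, from Slpi below 0.1 to Calr above 100, and the points separate visibly for Fkbp11, Jchain and Prdm1 at the low end.

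Among the 3 regulators none was called. Prdm1, the repressor that starts the plasma cell program, had 1.15, 1.71, 1.69 and 1.43 CPM in control replicates 1 to 4 and 2.21, 2.07, 1.82 and 2.90 CPM in GFP-ZFP36L1 replicates 1 to 4. All 4 GFP-ZFP36L1 values were above all controls, resting on 48 to 119 counts a library. The log2 fold change was 0.59 ± 0.19 (SE, 95% interval 0.18 to 0.99), and the adjusted p of 0.12 by the edgeR test missed the threshold. Xbp1, which widens the ER, had 95.9 ± 10.8 against 94.0 ± 10.4 CPM, a difference whose 95% interval of -0.23 to 0.17 on the log2 scale lies within 1.5-fold. Ell2, an elongation factor that favours the secreted form of immunoglobulin mRNA, had 41.9 ± 2.73 against 44.4 ± 2.85 CPM.

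Of the surface and secreted products, Jchain, which links IgM and IgA into polymers, had 1.55, 1.13, 1.36 and 2.36 CPM in the controls and 0.967, 0.780, 0.784 and 1.15 CPM in the GFP-ZFP36L1 libraries. The groups overlapped by 1 pair of values, the lowest control and the highest GFP-ZFP36L1 library. Its log2 fold change of -0.79 ± 0.24 (SE) had an adjusted p of 0.109 by the edgeR test, and DESeq2 called it at 0.0452. Sdc1 (CD138, the surface marker of plasma cells) had 10.3 ± 0.765 against 9.93 ± 2.28 CPM, with GFP-ZFP36L1 replicate 4 lowest at 6.58 CPM. Slpi had 34 counts over all libraries, between 1 and 9 in each, and was not tested. Prdm1 thus lay above and Jchain below the control mean, and neither was called by the edgeR test.

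The 14 ER chaperones and cofactors held both called genes. Fkbp11 (chr15:98724366-98728198, GRCm38) had 4.13, 3.44, 3.81 and 3.64 CPM in the controls and 2.65, 1.81, 2.47 and 1.54 CPM in the GFP-ZFP36L1 libraries. Every GFP-ZFP36L1 value lay below every control, on 148 to 173 counts in controls and 63 to 115 in the others. It fell to 0.564 of the control level (log2 fold change -0.83 ± 0.17 SE, 95% interval -1.20 to -0.45, adjusted p = 0.0289 by the edgeR test). The call was lost without any 1 control or without GFP-ZFP36L1 replicate 2 or 3, with adjusted p between 0.0584 and 0.0948 and log2 fold changes between -0.91 and -0.76.

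Dnajb9 (ERdj4, chr12:44205559-44210326) brings misfolded proteins to Hspa5 and is known to hold Ern1 inactive. Its level was 27.2, 25.9, 25.1 and 23.9 CPM in the controls and 31.1, 30.7, 28.6 and 30.4 CPM in the GFP-ZFP36L1 libraries, so the groups did not overlap. It rose 1.18-fold (log2 fold change 0.24 ± 0.06 SE, 95% interval 0.11 to 0.37, adjusted p = 0.0489 by the edgeR test). The call was lost without a filter on low counts and without control replicate 2, 3 or 4 or GFP-ZFP36L1 replicate 2, 3 or 4, with adjusted p between 0.0605 and 0.155 and log2 fold changes between 0.21 and 0.27.

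The other 12 chaperones were not called. Hspa5 had 595, 488, 507 and 471 CPM in the controls and 577, 486, 434 and 447 CPM in the GFP-ZFP36L1 libraries, where replicate 1 of each group was the highest and the ranges overlapped. Hsp90b1 had 472 ± 53.7 against 469 ± 44.3 CPM, Calr 540 ± 42.1 against 493 ± 54.0 CPM, and its membrane-bound relative Canx (calnexin) 303 ± 16.8 against 325 ± 39.9 CPM. For all 4 the 95% interval lay within 1.5-fold. Dnajc3 (p58IPK), a co-chaperone known to restrain the kinase sensor, had 81.1 ± 2.51 against 71.7 ± 4.98 CPM, and its values overlapped through GFP-ZFP36L1 replicate 1 at 78.8 CPM. Its log2 fold change was -0.18 ± 0.06 (SE, adjusted p = 0.114 by the edgeR test). It was called with limma voom, with the number in the sample titles as a linear term, and without GFP-ZFP36L1 replicate 1, where the log2 fold change was -0.22.

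Dnajb11 (ERdj3), another Hspa5 co-chaperone, had 91.5 ± 4.81 against 84.6 ± 6.05 CPM, and Hyou1, the nucleotide exchange factor that resets Hspa5, 148 ± 4.11 against 142 ± 10.1 CPM. Manf, a small ER stress protein that can be secreted, had 55.6 ± 6.36 against 47.5 ± 8.81 CPM. Its annotated span holds Rbm15b on the same strand and part of Dcaf1 on the other, which makes its counts uncertain. Sdf2l1 and Creld2, ER proteins known to rise with ER stress, had 11.96 ± 2.085 against 11.6 ± 2.52 and 25.9 ± 2 against 25.0 ± 2.41 CPM. Fkbp2, a second prolyl isomerase of the ER, had 21.8 ± 2.85 against 21.4 ± 1.05 CPM, with a log2 interval of -0.22 to 0.16 that lies apart from that of Fkbp11. The difference between Fkbp11 and Fkbp2 was not tested. Mzb1 had 166 ± 10.6 against 182 ± 16.1 CPM.

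None of the 5 protein disulfide isomerases, which form and reshuffle disulfide bonds in antibody chains, was called. Txndc5 had 227, 216, 206 and 199 CPM in the controls and 206, 185, 182 and 153 CPM in the GFP-ZFP36L1 libraries, with GFP-ZFP36L1 replicate 4 the lowest and the groups overlapping through GFP-ZFP36L1 replicate 1. Its log2 fold change was -0.22 ± 0.08 (SE, adjusted p = 0.173 by the edgeR test). Without GFP-ZFP36L1 replicate 4 it was -0.14, and Txndc5 was called lower without GFP-ZFP36L1 replicate 1 (-0.28, adjusted p = 0.0456) and with a linear term for the title number (-0.18, adjusted p = 0.0314). P4hb, Pdia3, Pdia4 and Pdia6 had log2 fold changes between -0.03 and 0.02, and all their intervals lay within 1.5-fold.

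In ER-associated degradation, which pulls misfolded proteins back to the cytosol, 0 of 6 genes were called by the edgeR test. The mannose trimming factors Edem1 and Edem2 had 152 ± 4.22 against 147 ± 6.28 CPM and 53.3 ± 1.03 against 54.5 ± 1.74 CPM. The membrane proteins Derl1 and Derl2 had 99.1 ± 4.12 against 94.5 ± 7.85 CPM and 68.9 ± 0.731 against 67.1 ± 2.58 CPM, and Herpud1, their scaffold, 130 ± 4.51 against 126 ± 12.6 CPM. The median SE of the log2 fold change was 0.056 for these 6 genes, beside 0.078 for the 39. Derl3, a derlin typical of secretory cells, varied more, at 2.67, 1.53, 2.07 and 2.38 CPM in controls and 1.41, 2.26, 1.61 and 1.44 CPM in the GFP-ZFP36L1 libraries, with overlapping groups and an interval of -0.81 to 0.10.

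Translocation and export showed values on both sides of 0. Sec61a1, the channel through which new chains enter the ER, had 161 ± 3.73 against 166 ± 8.57 CPM, and its partner Sec61b 43.2 ± 5.23 against 41.1 ± 7.79 CPM. Ssr1 and Ssr4 belong to the same translocon-associated complex. Ssr1 had 104 ± 7.69 against 108 ± 2.53 CPM, while Ssr4 had 60.8, 55.3, 56.3 and 55.0 CPM in controls and 51.4, 50.8, 52.8 and 46.0 CPM in the GFP-ZFP36L1 libraries, without overlap (log2 fold change -0.18 ± 0.06 SE, adjusted p = 0.125 by the edgeR test). Sec24d, a cargo adaptor of the vesicles that leave the ER, had 4.37 ± 0.291 against 5.21 ± 0.388 CPM (log2 fold change 0.25 ± 0.10 SE, adjusted p = 0.221 by the same test). Neither passed the threshold.

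Of the stress sensors, Ern1 had 13.0, 14.7, 13.6 and 13.8 CPM in the controls and 15.3, 16.3, 15.2 and 15.1 CPM in the GFP-ZFP36L1 libraries. All GFP-ZFP36L1 values were above the controls, the log2 fold change was 0.17 ± 0.07 (SE), and the adjusted p was 0.223 by the edgeR test. Atf6 had 116 ± 5.25 against 113 ± 4.91 CPM. The factors downstream of the kinase sensor differed in sign, with Atf4 at 213 ± 14.1 against 189 ± 15.7 CPM (adjusted p = 0.208 by the same test) and Ddit3 at 22.1 ± 2.60 against 22.6 ± 2.03 CPM. The counts measure mRNA only, so splicing of Xbp1, cleavage of Atf6 and translation of Atf4 were not measured.

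**Figure D3:**
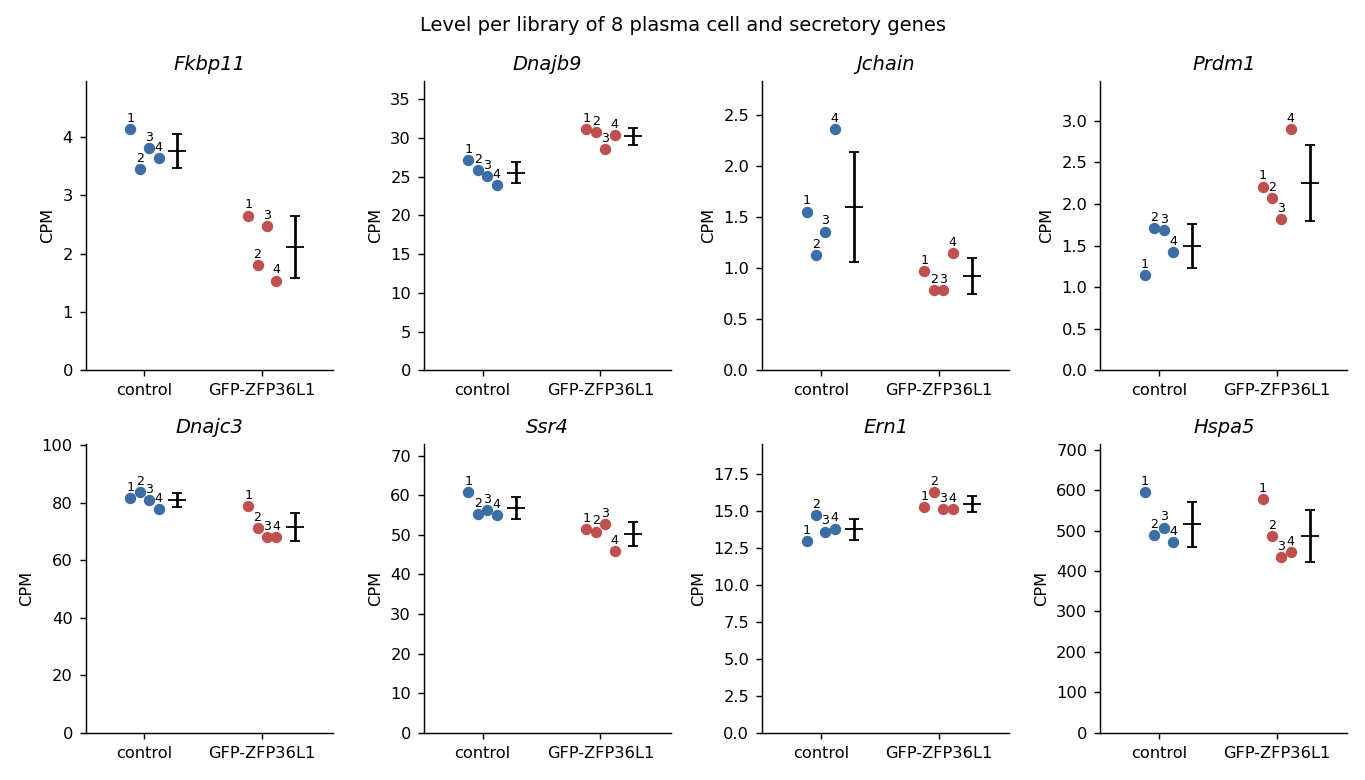
CPM of 8 genes in each library, labelled by replicate number, with mean and SD beside each group and axes starting at 0. Groups separate for Fkbp11, Dnajb9, Prdm1, Ssr4 and Ern1, touch for Jchain and Dnajc3, and overlap for Hspa5, where replicate 1 is the highest of each group.

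Most chaperones and the disulfide isomerases varied together between libraries of the same group. Control replicate 1 was the highest control for 28 of 39 genes (71.8%, beside 34.9% of all genes tested), among them 13 of 14 chaperones and 5 of 5 disulfide isomerases. It was the lowest control for 5 of 39 (12.8%, beside 32.9%), namely Prdm1, Sec61a1, Sec24d, Ern1 and Atf6. GFP-ZFP36L1 replicate 1 was highest in its group for 25 of 39 (64.1%, beside 33.0%), with 11 of 14 chaperones and 5 of 5 disulfide isomerases. The lowest library was most often control replicate 4 (23 of 39, 59.0%, beside 28.3%) and GFP-ZFP36L1 replicate 4 (20 of 39, 51.3%, beside 32.5%).

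Summed over the 14 chaperones, levels were 2737, 2416, 2425 and 2267 CPM in control replicates 1 to 4 and 2696, 2445, 2222 and 2199 CPM in GFP-ZFP36L1 replicates 1 to 4. The sums of the groups overlapped, and the gap between the highest and the lowest library of a group was larger than that between the group means. Control replicate 1 was most often the highest control, and GFP-ZFP36L1 replicate 4 most often the lowest of its group. This pair was chosen after the data were seen, so leaving it out favoured a rise in the median. Without the pair, the median log2 fold change of the 39 genes moved from -0.04 to 0.06. It was 0.007 without control replicate 1 alone, 0.008 without GFP-ZFP36L1 replicate 4 alone and -0.070 without GFP-ZFP36L1 replicate 1 alone. With both left out, 0 of the 39 genes were called, with adjusted p of 0.0577 for Fkbp11 and 0.0513 for Dnajb9 by the edgeR test. What sets these libraries apart was not tested.

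**Figure D4:**
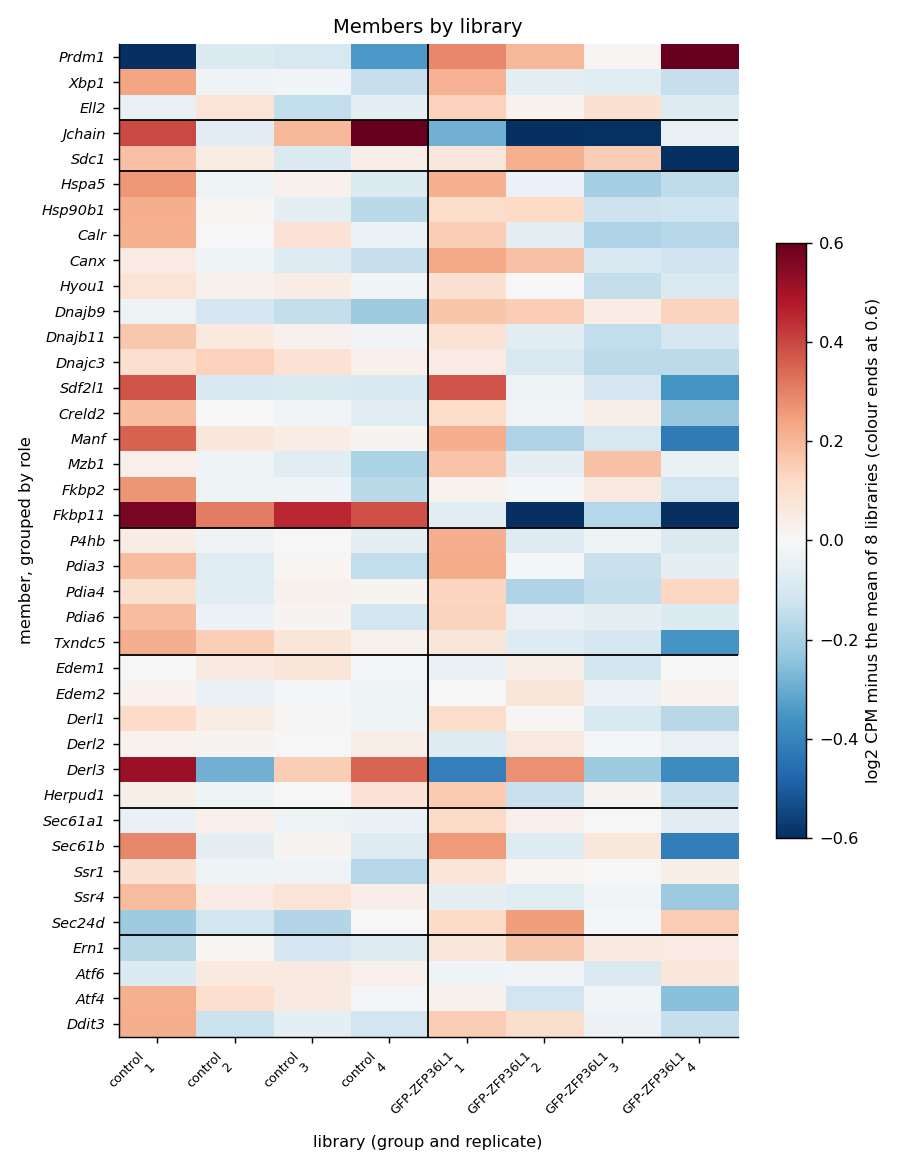
Log2 CPM of each tested gene (rows, by role) minus its mean over 8 libraries (columns), red for above and blue for below, with colour ending at 0.6. Most chaperone and disulfide isomerase rows are red in replicate 1 of both groups, and Fkbp11 alone among the chaperones is red in all controls and blue in all GFP-ZFP36L1 libraries.

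Some of the promoters hold an element of the ER stress response. The genes were chosen in part for that response, so the share below is a description that does not stand apart from the choice. RefSeq promoters (GRCm38.p6, 250 bases before to 50 after the start) were found for 34 of the 40 genes and searched on both strands for the ER stress response element ERSE, spelled CCAAT, 9 bases of any kind, CCACG, which Atf6 is known to bind with the factor at the CCAAT box. It was present in 8 of the 40 promoters of these 34 genes (20%), beside 39 of 32851 promoters of all genes (0.119%). The 8 promoters belong to 8 genes, of which 6 are ER chaperones and cofactors and the others are Pdia6 and Derl3. The matches below show how the fixed ends, in capitals, are kept while the 9 bases between them differ from gene to gene.
Hspa5, chr2:34772025-34772043: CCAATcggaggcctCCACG
Hsp90b1, chr10:86705638-86705656: CCAATcgcaaggagCCACG
Hsp90b1, chr10:86705533-86705551: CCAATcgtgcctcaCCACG
Calr, chr8:84847075-84847093: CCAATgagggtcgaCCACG
Canx, chr11:50325800-50325818: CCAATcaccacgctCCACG
Dnajc3, chr14:118937827-118937845: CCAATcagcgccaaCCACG
Creld2, chr15:88819520-88819538: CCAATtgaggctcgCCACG
Pdia6, chr12:17266491-17266509: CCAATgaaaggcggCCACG
Derl3, chr10:75893242-75893260: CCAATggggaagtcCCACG
The second match of Hsp90b1 and those of Calr, Creld2 and Derl3 lie on the strand opposite to the gene. Each sequence reads 5′ to 3′ on the strand that holds the match.

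A second element, ERSE-II (ATTGG, 1 base, CCACG), was found at Dnajb11 and Herpud1, beside 0.0365% of all promoters. The core of the element bound by XBP1 (TGACGTGG) was found at Txndc5 and Sec24d, beside 0.676% of all promoters, and a site for ATF4 dimers (TTGCATCA) at Herpud1, beside 0.895%. The 10 genes with ERSE or ERSE-II had log2 fold changes from -0.36 to 0.10 with a median of -0.07, and 9 were negative. By the edgeR test 0 were called, with 1 at an unadjusted p under 0.05. The 23 tested genes with a promoter and neither element had a median of -0.03, with 13 negative, and included both called genes and 9 at an unadjusted p under 0.05. Over all genes tested, 52.1% were negative, 1.83% were called higher and 1.30% lower. At an unadjusted p under 0.05, 9.47% of all genes were higher and 7.87% lower. The difference between the genes with and without an element was not tested.

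The promoter of Hspa5 is printed as the fullest example, with the ERSE in capitals, and those of the 2 called genes beside it. Fkbp11 has 2 annotated starts, and the first is shown. No match to any of the 4 patterns was found in either start of Fkbp11 or in Dnajb9.
Hspa5, chr2:34771840-34772139, plus strand: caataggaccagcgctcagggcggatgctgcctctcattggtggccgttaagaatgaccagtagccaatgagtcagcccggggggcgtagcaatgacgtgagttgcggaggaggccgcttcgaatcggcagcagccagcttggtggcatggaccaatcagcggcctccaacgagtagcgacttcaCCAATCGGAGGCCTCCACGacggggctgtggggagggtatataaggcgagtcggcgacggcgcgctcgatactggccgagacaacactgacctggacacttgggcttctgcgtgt
Dnajb9, chr12:44210019-44210318, minus strand: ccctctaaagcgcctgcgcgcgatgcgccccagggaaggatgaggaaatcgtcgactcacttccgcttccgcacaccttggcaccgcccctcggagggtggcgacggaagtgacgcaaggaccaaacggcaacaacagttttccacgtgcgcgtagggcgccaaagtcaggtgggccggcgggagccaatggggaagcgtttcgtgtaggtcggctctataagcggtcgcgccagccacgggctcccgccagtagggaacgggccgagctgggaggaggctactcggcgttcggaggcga
Fkbp11, chr15:98728149-98728448, minus strand: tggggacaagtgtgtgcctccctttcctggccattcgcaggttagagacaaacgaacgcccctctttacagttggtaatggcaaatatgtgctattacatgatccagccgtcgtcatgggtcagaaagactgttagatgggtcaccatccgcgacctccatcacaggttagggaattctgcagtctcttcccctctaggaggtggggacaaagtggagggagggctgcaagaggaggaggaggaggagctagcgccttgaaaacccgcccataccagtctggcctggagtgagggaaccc
The Hspa5 window holds 4 CCAAT boxes in all, counting both strands. Dnajb9 has 1 such box and 2 copies of CCACG without the 9-base spacing.

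UAUUUAU, the core site of ZFP36 family proteins, was searched in the longest annotated 3' UTR of each tested gene, written as TATTTAT in DNA. It was present in 10 of 39 genes (25.6%), beside 29.6% of 10978 tested genes with a 3' UTR. The median length of these 3' UTRs was 988 bases for the 39 genes and 1348 for the 10978. Prdm1 held 4 copies, Ern1 3, Ell2, Canx and Edem1 2 each, and Jchain, Hyou1, Dnajc3, Derl2 and Ssr1 1 each. Neither Fkbp11 nor Dnajb9 held one. The annotated 3' UTR of Fkbp11 has only 15 bases, so the lack of a site there says little, while that of Dnajb9 has 1395. The sites of Prdm1 and Ern1, the genes with the most copies, and of Jchain are shown 5′ to 3′ with the heptamer in capitals.
Prdm1, chr10:44438205-44438211: gaatgctgtaTATTTATgaacctattt
Prdm1, chr10:44438193-44438199: tttatgaaccTATTTATaccagtatac
Prdm1, chr10:44438159-44438165: atatatgataTATTTATaaccacttaa
Prdm1, chr10:44437221-44437227: tttacattgtTATTTATgtgcaaattg
Ern1, chr11:106395156-106395162: tgcaatgacaTATTTATtgaatctatt
Ern1, chr11:106395143-106395149: ttattgaatcTATTTATatttatttaa
Ern1, chr11:106395137-106395143: aatctatttaTATTTATttaattttta
Jchain, chr5:88520832-88520838: tatttactaaTATTTATgaaagacttt
All 3 genes are on the minus strand of GRCm38. Coordinates are those of the heptamer. Prdm1 and Ern1, with 7 of the 18 sites found in the 39 genes, had higher mean levels in the GFP-ZFP36L1 group and Jchain a lower one, and none of the 3 was called. Over the whole set, 5 of the 10 genes with a heptamer and 8 of the 29 without had positive log2 fold changes. Among all genes tested with a 3' UTR these were 1677 of 3247 and 3730 of 7731. The median log2 fold change was 0.010 for the 10 genes with a heptamer and -0.043 for the 29 without, beside 0.005 and -0.006 for all genes tested with a 3' UTR.

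A wider set of 133 tested genes of the same machinery (other plasma cell genes, ER folding, degradation, translocation, transport to the Golgi and the stress responses) held 1 gene called higher and 1 called lower, with a median log2 fold change of -0.02 and 79 negative values. Each call is 0.752% of the 133, beside 1.83% of all genes called higher and 1.30% called lower, and 59.4% of values were negative, beside 52.1%. The gene that fell was Ero1lb, the oxidase that recharges the disulfide isomerases, at 269 ± 11.0 against 221 ± 17.3 CPM (log2 fold change -0.29, adjusted p = 0.0391 by the edgeR test). The gene that rose was Bhlha15 (Mist1), a factor of secretory cells that Xbp1 is known to induce, at 0.788, 0.785, 0.904 and 0.712 CPM in controls and 1.01, 1.44, 1.61 and 1.54 CPM in the GFP-ZFP36L1 libraries (log2 fold change 0.81, adjusted p = 0.0452 by the same test). Groups overlapped for neither gene. The Ero1lb call was lost with upper-quartile factors and without control replicate 2, 3 or 4 or GFP-ZFP36L1 replicate 2 or 3 (adjusted p between 0.0557 and 0.124), and that of Bhlha15 without any 1 library except GFP-ZFP36L1 replicate 1 (adjusted p between 0.0911 and 0.136).

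Among 11 factors that hold the B cell state, 1 rose, 2 fell and 8 were not called by the edgeR test, and 10 of 11 values were negative (90.9%). Over all genes tested 1.83% were called higher, 1.30% lower and 52.1% were negative. Pax5, which fixes B cell identity and represses plasma cell genes, had 234, 242, 252 and 250 CPM in controls and 210, 204, 208 and 220 CPM in the GFP-ZFP36L1 libraries, without overlap (log2 fold change -0.22, adjusted p = 0.0405). Irf8, a lineage factor, fell by 0.28 on the log2 scale (adjusted p = 0.0456 by the same test), and its counts are uncertain because another annotated gene overlaps it on the same strand. Mitf, known to restrain B cell activation, rose from 1.004 ± 0.222 to 1.78 ± 0.314 CPM (log2 fold change 0.83, adjusted p = 0.0480). The 3 calls were lost without control replicate 2, 3 or 4 or GFP-ZFP36L1 replicate 2 or 3, those of Irf8 and Mitf also without control replicate 1 or GFP-ZFP36L1 replicate 4, with adjusted p between 0.0530 and 0.152. Pax5 and Mitf were further lost with upper-quartile factors (0.0645 and 0.0523), and Pax5 with no filter (0.0513).

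Immunoglobulin constant genes, the cargo of this machinery, all had negative log2 fold changes in the 8 genes tested, and 2 were called lower (25%), beside 52.1% negative and 1.30% called lower over all genes tested. Ighg1, the switched IgG1 gene, had 1.65, 2.43, 1.38 and 1.92 CPM in controls and 0.737, 0.719, 0.438 and 0.463 CPM in the GFP-ZFP36L1 libraries. No value overlapped, and it fell by 1.64 on the log2 scale (SE 0.24, adjusted p = 0.00801 by the edgeR test), with the call present in all 16 alternatives that kept the gene. Ighd, the IgD gene of resting B cells, fell by 0.33 (adjusted p = 0.0493 by the same test), and this call was lost without any 1 library except GFP-ZFP36L1 replicate 1 (adjusted p between 0.0943 and 0.152). Ighg3 had 3.13 ± 0.565 against 2.14 ± 0.146 CPM (adjusted p = 0.0846) and Ighg2b 4.68 ± 1.29 against 2.94 ± 0.964 CPM (adjusted p = 0.190), and neither was called. Ighm at 5413 ± 323 against 5165 ± 260 CPM, Igha, Igkc and Iglc2 were not called either, with log2 fold changes between -0.20 and -0.07.

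Plasma cells carry little B220, CD21 and CD23, which were used in the sort together with CD93. Whether the sort left plasma cells out was not tested. Of the 6 plasma cell markers outside the set, 4 were tested, with 1 lower (Ighg1) and 0 higher by the edgeR test. They summed to between 223 and 239 CPM in controls and between 236 and 252 CPM in the GFP-ZFP36L1 libraries. Most of that sum was Irf4, which resting B cells express as well and which was picked out after its values were seen. Irf4 had 208 ± 9.27 against 229 ± 8.63 CPM (adjusted p = 0.185 by the same test). The other tested markers of the list had lower means in the GFP-ZFP36L1 group than in controls. These were Ighg1 (1.84 against 0.589 CPM), Ighg2b (4.68 against 2.94 CPM) and Igha (15.49 against 13.85 CPM). Tnfrsf17, the plasma cell receptor BCMA, was at 0 in all 8 libraries, which allows up to 3 counts, or 0.0737 CPM in the library with the highest limit. Macrophage and monocyte markers, 0 of 5 tested called, summed to between 9.88 and 10.4 CPM in controls and between 7.51 and 9.04 CPM in the other group. The part of other cells in the differences of Fkbp11, Jchain and Ighg1 was not tested.

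**Figure D5:**
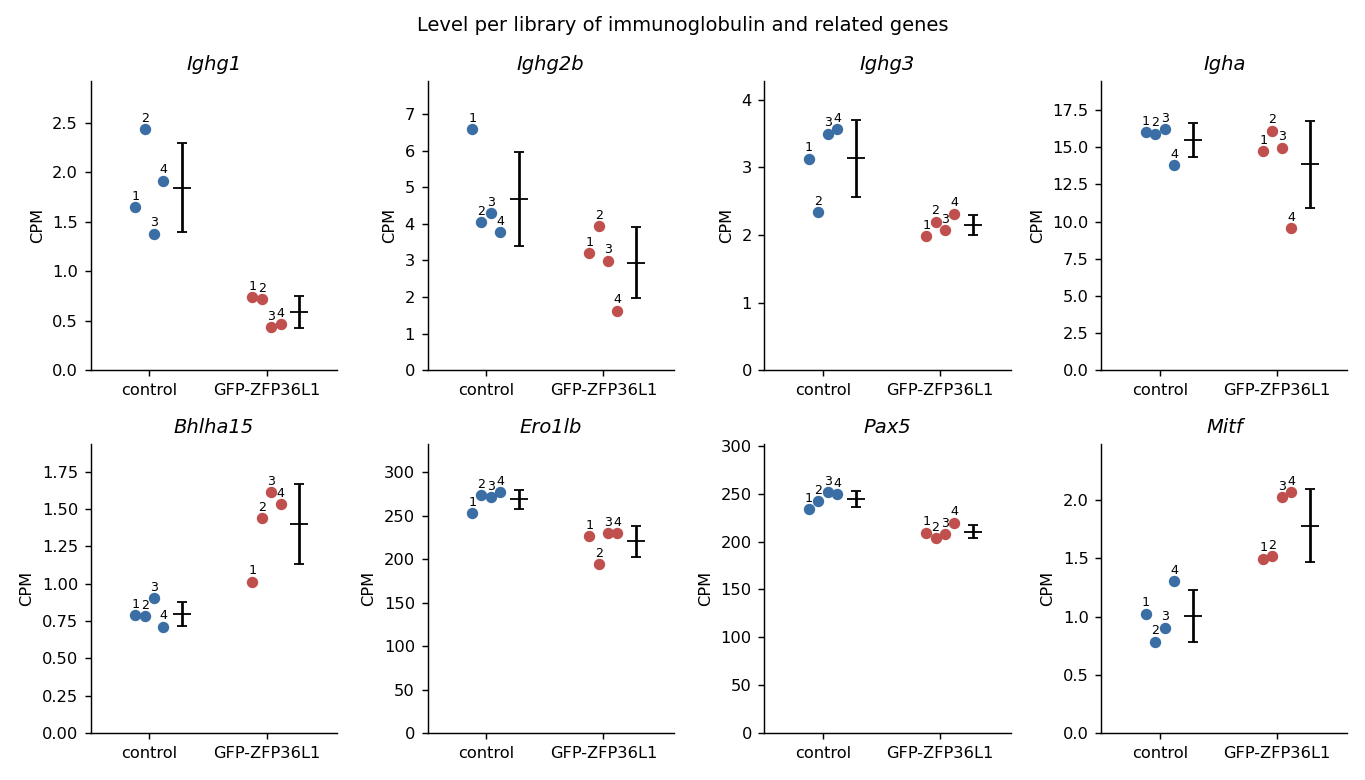
CPM of 4 switched immunoglobulin genes, Bhlha15, Ero1lb, Pax5 and Mitf in each library, labelled by replicate number, with mean and SD beside each group and axes starting at 0. Ighg1 and Ighg3 are lower and Bhlha15 and Mitf higher in every GFP-ZFP36L1 library than in any control, while Igha overlaps.

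Other tools placed 3 of the 39 genes past an adjusted p of 0.05, which is 7.69%. DESeq2 called 6.89% of all genes it tested and limma voom with quality weights 8.16%. In the authors' deposited table, 6.63% of genes with a value passed, and the 3 were Fkbp11 (log2 fold change -0.52, adjusted p = 0.000257), Dnajb9 (0.23, 0.00681) and Jchain (-0.34, 0.0458). Of the 407 genes called with the edgeR test, 407 had the same sign in the authors' deposited table. Both rest on the same 8 libraries, so the shared signs are not independent evidence.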

How the data were processed

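RNA was measured in 8 libraries of sorted follicular B cells made with a stranded mRNA kit, per the labels' protocols. The submitters' processing notes name build GRCm38 and the tools DESeq2 1.10.1, HTSeq, TopHat2 2.0.12 and Trim Galore. The strand setting used in counting was not given in the sources used here, so reads of overlapping genes may be shared. The authors deposited raw counts per gene, which carry every test here, and a comparison table whose log2 fold changes and adjusted p-values are quoted only as the authors' deposited table. The 8 count columns were matched to libraries by sample title, and replicate numbers follow accession order and pair nothing.

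Counts were fitted in R 4.3.3 with edgeR 4.0.16 (filterByExpr, TMM, quasi-likelihood test with robust dispersion, group as the only term, Benjamini-Hochberg over 13035 genes). The 95% intervals use the SE and the degrees of freedom of the fit. The script was tested on simulated data. Counts cover 38947758 to 51024233 reads a library, so a count of 3 equals 0.0603 to 0.0737 CPM, and intervals of low genes are wide. Exon lengths and 3' UTRs are from GENCODE M21, a symbol was found for 42548 of 43629 identifiers, and promoters are RefSeq's. Tables were made with Python 3.11.15 and pandas 2.3.3, and figures with matplotlib 3.10.9.

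All 40 members are named, with, of the wider lists, the genes called and the tested immunoglobulin constant genes. The members and lists were chosen with earlier results of these data known. Alternatives were RLE factors, upper-quartile factors, DESeq2 1.42.0, quality-weighted voom in limma 3.58.1, no filter, 1 CPM in 4 libraries, immunoglobulin genes left out, the title number as a linear term, and each library left out in turn. Leaving out control replicate 1 and GFP-ZFP36L1 replicate 4 together was added after seeing the data. Iglc1 and Iglc3 were not matched by symbol and are not analysed here.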

Additional observations from a re-analysis of the deposited data

Results flagged for a closer look

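Of 80 groups of 4 libraries examined, 5 had a library whose distance from the nearest other one passed Dixon's 95% value for its share of the group's range, where chance gives about 1 in 20. In controls, replicate 1 stood apart for Sdf2l1, at 15.09 CPM with the others between 10.9 and 10.94, and for Manf, at 65.1 CPM with the others between 51.49 and 53.44. Control replicate 4 stood apart for Slpi, at 0.2211 CPM with the others between 0.04758 and 0.07162, on 9 counts. In the GFP-ZFP36L1 group, replicate 1 stood apart for the disulfide isomerase Pdia6, at 172.9 CPM with the others between 149.2 and 152.9. Replicate 2 of the same group stood apart for the sensor Ern1, at 16.29 CPM with the others between 15.11 and 15.29. Sdf2l1, Manf and Pdia6 were each flagged for a replicate 1. That replicate was the highest control for 71.8% of the 39 tested genes and the highest GFP-ZFP36L1 library for 64.1%.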

How the results depend on the processing

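Members called higher, 1 in the reported fit, numbered 0 without a filter, 0 with both end libraries (control replicate 1 and GFP-ZFP36L1 replicate 4) left out, and 0 to 1 when libraries were left out singly. Members called lower, also 1, numbered 2 with DESeq2, 2 with limma voom, 4 with a linear term for the title number, 0 with both end libraries left out, and 0 to 3 when libraries were left out singly. Of the wider genes, 1 was called higher, against 2 with DESeq2, limma voom, no filter or the title number, 0 without both end libraries and 0 to 2 over single libraries. The 1 wider gene called lower became 3 with DESeq2, 4 with limma voom, 4 with the title number, 0 with upper-quartile factors and 0 to 4 over single libraries. The median log2 fold change of the members went from -0.04 to 0.056 without both end libraries, was 0.007 without control replicate 1 and 0.008 without GFP-ZFP36L1 replicate 4, and ranged from -0.070 to 0.008 over single libraries. The end libraries are the control most often highest and the GFP-ZFP36L1 library most often lowest. They were chosen after the data were seen, so a rise in the median was favoured. Dnajb9 was called in 9 of 17 alternatives, Fkbp11 in 10, Dnajc3 in 3, and Jchain and Txndc5 in 2 each, all with the sign kept. The other 34 tested members were called in none, and 13 of them changed sign in 1 or more. The cause was not tested. Single-library fits leave 3 libraries in a group and so have fewer degrees of freedom. Libraries were not paired, since the labels give no pairing. Slpi, Jchain, Prdm1, Derl3 and Fkbp11 had the fewest counts.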
